A study of Mus musculus with 6 samples.

Results

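Retinoid synthesis, clearance and reception were followed through 10 genes: the aldehyde dehydrogenases Aldh1a1 and Aldh1a7, the retinoic acid hydroxylases Cyp26a1 and Cyp26b1, the binding protein gene Crabp1, the retinoic acid receptors Rara, Rarb and Rarg, and the retinoid X receptors Rxra and Rxrb. They were taken by gene symbol, and each was represented by 1 probe set of the array, among 19938 genes measured with a symbol of their own. The cells were long-term hematopoietic stem cells (LT-HSCs), which renew all blood lineages throughout life, and the mice were C57BL/6 females of 8 to 12 weeks whose marrow was sorted. The gate kept Sca1+ c-Kit+ cells without lineage markers, CD34 or a marker named Flt2 in the design text. One genotype was Lxn-/-, in which exons 2 to 4 of latexin (Lxn) are deleted and, per the labels, latexin protein is absent. The other was WT, with the latexin gene and protein intact. Each genotype had 3 arrays, and each array carried RNA from about 100000 cells pooled from 10 to 20 mice, so values describe pools and not single animals. In such bulk RNA, fewer cells of a type and less RNA per cell cannot be told apart.

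Retinoic acid is made from vitamin A in 2 oxidation steps, retinol to retinal and retinal to retinoic acid. The second step belongs to enzymes of the ALDH1A family, though not every member need carry it out. It binds heterodimers of a retinoic acid receptor and a retinoid X receptor, which sit on paired copies of a short DNA repeat and switch from repression to activation, while CYP26 enzymes hydroxylate and so remove it. In mouse stem cells of the marrow, retinoic acid signalling is known for helping to keep cells dormant, and Cyp26b1 is known for limiting it there.

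Retinoic acid is known to act back on genes of its own pathway, and the promoters of 2 of the 10 held the letters of its classical element. The DR5 motif is a pair of 6-base half-sites in the same orientation, separated by 5 bases, where the accepted half-sites were AGGTCA and AGTTCA, together with GGGTCA and also GGTTCA. It was searched on both strands of promoter windows from RefSeq (GRCm38.p6), which run from 250 bases before a gene's start to 50 bases after it. All 10 genes had at least 1 window, 17 in all. The motif was found once in Rarb and once in Cyp26a1, and these letters were not in the windows of the other 8 genes. Of all 32851 windows of 300 bases, 32 held it, or 0.0974%. The same half-sites 2 bases apart (DR2) or 1 base apart (DR1) were found in 0 of the 17 windows, against 0.268% and 0.222% of all windows. The 2 windows are shown because they are those of the 10 genes that hold the motif. Cyp26b1, which retinoic acid is also known to induce, has no match in its window. Capitals mark the motif.
Rarb, chr14:16575427-16575726, minus strand: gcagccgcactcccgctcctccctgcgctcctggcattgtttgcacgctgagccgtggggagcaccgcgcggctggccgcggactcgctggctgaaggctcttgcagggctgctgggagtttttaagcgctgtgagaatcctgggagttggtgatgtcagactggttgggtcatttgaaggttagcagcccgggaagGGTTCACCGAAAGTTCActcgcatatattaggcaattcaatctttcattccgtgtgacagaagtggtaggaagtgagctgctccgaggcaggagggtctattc
Cyp26a1, chr19:37697558-37697857, plus strand: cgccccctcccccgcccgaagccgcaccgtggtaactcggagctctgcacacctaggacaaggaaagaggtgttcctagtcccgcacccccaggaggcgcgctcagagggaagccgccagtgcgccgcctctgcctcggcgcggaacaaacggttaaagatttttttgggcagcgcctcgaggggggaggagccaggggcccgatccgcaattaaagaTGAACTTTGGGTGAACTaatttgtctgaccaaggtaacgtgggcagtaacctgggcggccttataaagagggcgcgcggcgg

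The element of Rarb lay at positions -53 to -37 from the gene's start and ran in the direction of the gene. That of Cyp26a1 lay at -32 to -16 on the opposite strand, where it reads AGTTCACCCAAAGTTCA, against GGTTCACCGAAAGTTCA in Rarb. The 2 elements were identical at 15 of 17 positions and differed by G1A and G9C, counted from 1 at the 5′ end of the motif, with the base of Rarb first. A match of letters describes the sequence and does not show binding in these cells.

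All values below are log2 signals after robust multi-array average (RMA), the normalization that the authors applied. Over the whole table the arrays had correlations of 0.993 to 0.9973 with each other. WT replicate 3 stood apart on the first principal component (38.8% of the variance), with a score of 23.3 against -12.6 to 7.97 in the other 5 arrays. The targeted gene Lxn had 8.66, 8.78 and 8.78 in Lxn-/- pools, against 8.99, 9.09 and 9.55 in WT pools. Its Lxn-/- minus WT difference was -0.47 (SE 0.14), with an adjusted p of 0.993 in limma, and the place of its probes relative to the deleted exons is not known here. Of the stem cell markers, 11 of 11 measured were above a rough floor of 6.93, the 95th percentile of the mean signals of 1210 odorant and pheromone receptor probe sets. So were 16297 of the 23410 probe sets tested. All 10 measured erythroid markers and all 12 of B and plasma cells were too, so this floor does not tell cell types apart. The 11 stem cell markers include Kit, Procr, Slamf1, Hlf and Mecom. Cd34, whose protein the sort selected against, is not among the 11 and had a signal well above that floor (13.15, mean of 6 arrays), as did Flt3 (11.96).

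None of the 10 retinoid genes was called different between Lxn-/- and WT LT-HSCs in a test over all genes. The targeted gene Lxn was not called either, so a gene that did not pass is not shown to be unchanged. In limma 0 of 10 passed an adjusted p of 0.05, where 0% of the 23410 probe sets tested passed, and 0 of 10 had an unadjusted p under 0.05, where 3.9% of probe sets did. The 3 Lxn-/- values overlapped the 3 WT values for each of the 10, and 8.98% of all probe sets showed no overlap. The median difference over the 10 genes was -0.011, and over all genes it was -0.013. Means were higher in Lxn-/- for 5 genes and lower for 5, where 45.5% of all probe sets were higher and 54.5% lower. That split depended on scaling. With all arrays set to a common median it was 0 higher and 10 lower, beside 27.2% and 72.8% of all probe sets, and with quantile normalization 1 higher and 9 lower, beside 36.5% and 63.5%.

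**Figure D1:**
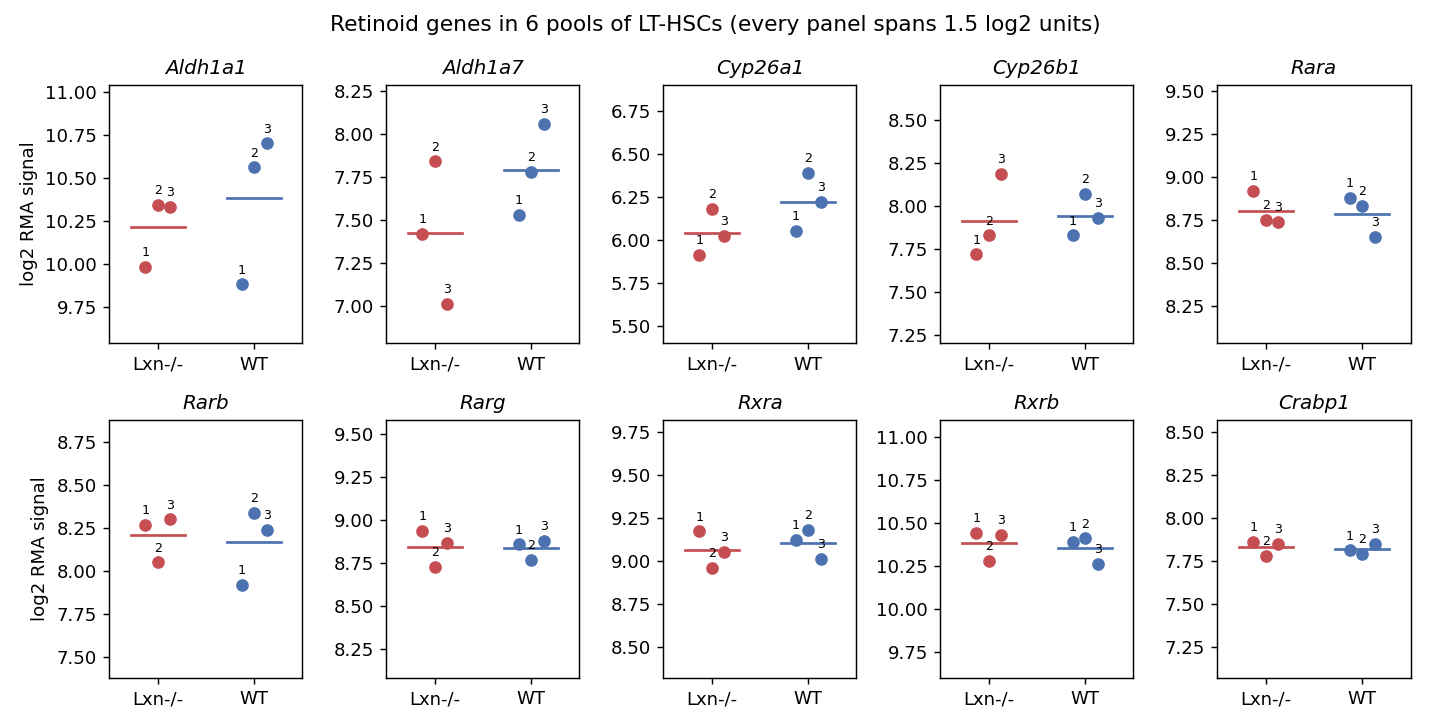
Log2 RMA signal (vertical axes, each spanning 1.5 log2 units) of the 10 retinoid genes in 3 Lxn-/- pools (red, left) and 3 WT pools (blue, right), with replicate numbers beside the points and bars at the means. Points of the genotypes overlap in every panel, and the spread is widest for Aldh1a7 (range 1.05) and narrowest for Crabp1 (range 0.08).

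The aldehyde dehydrogenase genes Aldh1a1 and Aldh1a7 were the members whose signals were least alike among pools of the same genotype. Aldh1a1, which encodes an enzyme that oxidizes retinal to retinoic acid, had 9.98, 10.34 and 10.33 in Lxn-/- replicates 1, 2 and 3, against 9.88, 10.56 and 10.70 in WT replicates 1, 2 and 3. WT replicate 1 was the lowest of all 6 pools and the other two WT pools were the highest, so the WT range enclosed the Lxn-/- range. The means were 10.22 ± 0.21 in Lxn-/- and 10.38 ± 0.44 in WT (SD, n = 3 each). This gave -0.16 (SE 0.21), with a 95% confidence interval of -0.64 to 0.32, or 0.64-fold to 1.24-fold, with an adjusted p of 0.993 in limma and an exact two-sided permutation p of 0.6. Single pools set its size: without WT replicate 1 it was -0.41 (unadjusted p = 0.014, adjusted p = 0.735 in limma), and without WT replicate 3 it was -0.0051.

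Aldh1a7, a rodent gene that arose as a close paralog of Aldh1a1, had the widest difference of the 10. Its signal was 7.42, 7.84 and 7.01 in Lxn-/- pools, against 7.53, 7.78 and 8.06 in WT pools. Lxn-/- replicates 1 and 3 lay below every WT pool, and Lxn-/- replicate 2 lay above 2 of the 3. The means were 7.42 ± 0.42 in Lxn-/- and 7.79 ± 0.27 in WT (SD, n = 3 each), a difference of -0.37 (SE 0.21, 95% confidence interval -0.86 to 0.12). The p in limma was 0.12 before and 0.993 after adjustment, and the exact two-sided permutation p was 0.3, where 3 pools against 3 cannot give less than 0.1. Without Lxn-/- replicate 3 the difference was -0.16, and without Lxn-/- replicate 2 it was -0.58 (unadjusted p = 0.0139, adjusted p = 0.972 in limma). The SD over all 6 pools was 0.37 for Aldh1a7 and 0.32 for Aldh1a1, wider than for 98.3% and 97.4% of genes. Whether the probes of either paralog also bind RNA of the other was not tested.

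The 2 paralogs did not follow the same pools. Lxn-/- replicate 3 had the lowest Aldh1a7 signal of the 6 but an Aldh1a1 signal close to that of Lxn-/- replicate 2, and WT replicate 1 was lowest for Aldh1a1 but above 2 Lxn-/- pools for Aldh1a7. By root mean square distance between mean-centred values over the 6 arrays, the genes nearest to Aldh1a7 were Add2 (0.0373), which encodes beta-adducin of the membrane skeleton, Stom (0.061), which encodes the membrane protein stomatin, and Scin (0.0809), which encodes an actin-severing protein. Add2 had 8.80, 9.26 and 8.38 in Lxn-/- pools, against 8.85, 9.12 and 9.37 in WT pools, the same order of pools as Aldh1a7 with Lxn-/- replicate 2 and WT replicate 3 high and Lxn-/- replicate 3 low. Differences were -0.30 (SE 0.22) for Add2, -0.42 (SE 0.20) for Stom and -0.27 (SE 0.21) for Scin, each with an adjusted p of 0.993 in limma.

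The mean of the erythroid markers was high and low in the same pools. The mean of the 10 measured erythroid markers, which include Klf1, Epor and Rhd, was 9.87, 10.22 and 9.65 in Lxn-/- pools, against 9.99, 10.12 and 10.48 in WT pools. Of the 10, 9 were highest in WT replicate 3 and 6 lowest in Lxn-/- replicate 3, and Alas2 followed neither, with 7.61, 7.44 and 7.68 in Lxn-/- pools against 8.02, 7.90 and 7.62 in WT pools. All 10 were above the floor of 6.93, and the list mean was lower in Lxn-/- by a difference of -0.28, with 0 of 10 passing in limma. With the erythroid mean subtracted on each array, a step added after the values were seen, centred Aldh1a7 was -0.01, 0.07 and -0.19 in Lxn-/- pools, against -0.01, 0.11 and 0.03 in WT pools. The difference was then -0.089, with an exact permutation p of 0.5, and the SD over the 6 pools was 0.1 in place of 0.37. Since the erythroid mean was already seen to follow the pools of Aldh1a7, a smaller SD and difference were fixed in advance. These values therefore test nothing about the source of the pattern. Subtracting the same mean left Aldh1a1 with an SD of 0.28 and a difference of 0.12, opposite in sign, with an exact permutation p of 0.7. Parts of this pattern of pools were also seen in other marker lists. The mean of 8 stromal and endothelial markers was 8.17, 8.62 and 7.73 in Lxn-/- pools, against 8.12, 7.90 and 8.66 in WT pools, again with Lxn-/- replicate 3 lowest and WT replicate 3 highest. Unlike Aldh1a7, this mean was low in WT replicate 2. Not all 8 markers followed it, and 6 were above the floor. Pecam1 was lowest in WT replicate 3 (10.24), Col1a1 highest in WT replicate 1 (8.51) and Lepr lowest in WT replicate 2 (5.94). The mean of 8 T and NK cell markers was 8.04, 8.84 and 8.04 in Lxn-/- pools, against 8.12, 8.07 and 8.43 in WT pools, with Lxn-/- replicate 2 and WT replicate 3 high. For the mean of 13 neutrophil markers the order was turned round, with 10.93, 10.14 and 11.45 in Lxn-/- pools, against 11.23, 10.78 and 9.51 in WT pools. Not all 13 followed that mean: Elane, Mpo, Prtn3 and Ctsg were each highest in WT replicate 2. All 12 B cell and plasma cell markers had lower means in Lxn-/-, with a median of -0.38, a list mean of 10.03 to 10.19 in Lxn-/- against 10.25 to 10.70 in WT, and 6 markers without overlap. Of these 12, 0 passed in limma and 8 had an unadjusted p under 0.05. Markers of eosinophils, mast cells and basophils were lower in Lxn-/- for 7 of 8, with a list mean of 8.40 to 9.45 in Lxn-/- against 9.40 to 9.75 in WT, and 0 passed. The part of these lists in the values of the retinoid genes was not tested.

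**Figure D2:**
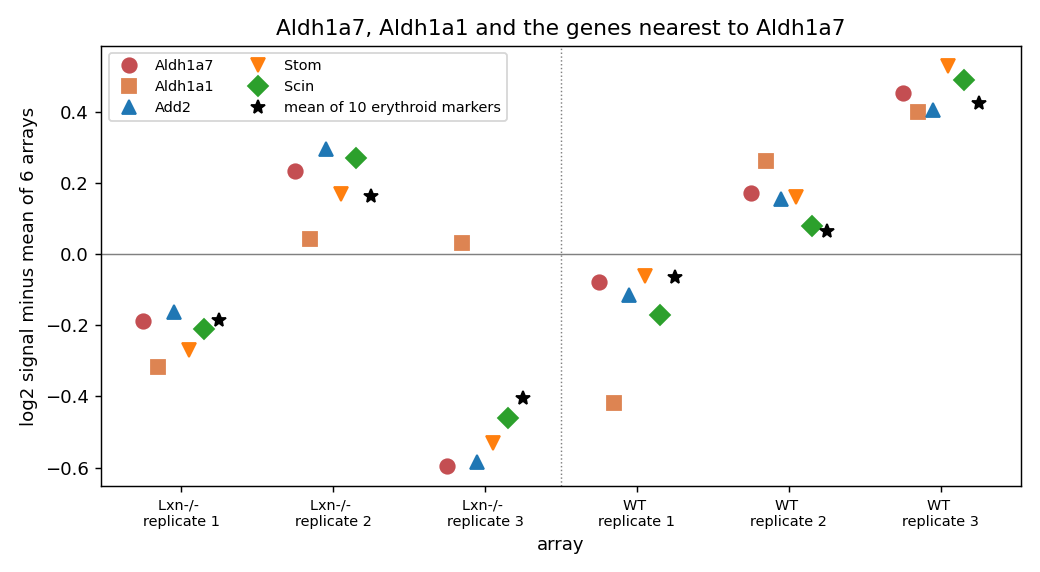
Log2 signal minus the mean of the 6 arrays (vertical axis) on each array (horizontal axis, Lxn-/- left of the dotted line, WT right) for Aldh1a7, Aldh1a1, the 3 genes nearest to Aldh1a7 and the mean of 10 erythroid markers. Aldh1a7, Add2, Stom, Scin and the erythroid mean stand together on each array, lowest in Lxn-/- replicate 3 and highest in WT replicate 3, while Aldh1a1 stands apart in Lxn-/- replicate 3 and WT replicate 1.

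The clearance genes encode cytochromes that hydroxylate retinoic acid. Cyp26a1, which many tissues induce in answer to retinoic acid and whose promoter is shown above, had 5.91, 6.18 and 6.02 in Lxn-/- pools, against 6.05, 6.39 and 6.22 in WT pools. Only Lxn-/- replicate 2 reached into the WT range. The means were 6.03 ± 0.13 in Lxn-/- and 6.22 ± 0.17 in WT (SD, n = 3 each), a difference of -0.19 (SE 0.11, 95% confidence interval -0.44 to 0.06), with an unadjusted p of 0.121 and an adjusted p of 0.993 in limma. It was the 1 member under the floor of 6.93, and 20.3% of the odorant and pheromone receptor probe sets were brighter, so its signal cannot be told from that of genes taken as silent. Without WT replicate 1 the difference was -0.27 and without WT replicate 2 it was -0.10, with adjusted p-values of 0.735 and 0.999 in limma.

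Cyp26b1, the hydroxylase known from dormant stem cells, had 7.72, 7.83 and 8.19 in Lxn-/- pools, against 7.83, 8.07 and 7.93 in WT pools. Lxn-/- pools held both the highest and the lowest value. The means were 7.91 ± 0.25 in Lxn-/- and 7.94 ± 0.12 in WT (SD, n = 3 each), a difference of -0.0323 (SE 0.13, 95% confidence interval -0.32 to 0.26), with an adjusted p of 0.993 in limma. Without Lxn-/- replicate 3 the difference was -0.17, and without Lxn-/- replicate 1 it was 0.065. Crabp1, which encodes a cytosolic protein that binds retinoic acid, was the steadiest member, with 7.86, 7.78 and 7.85 in Lxn-/- pools against 7.81, 7.79 and 7.85 in WT pools. Its 6 values lay within 0.08 of each other, an SD of 0.035 that was wider than for only 2.12% of genes. The difference was 0.01 (SE 0.063, 95% confidence interval -0.14 to 0.16), with an adjusted p of 0.997 in limma.

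**Figure D3:**
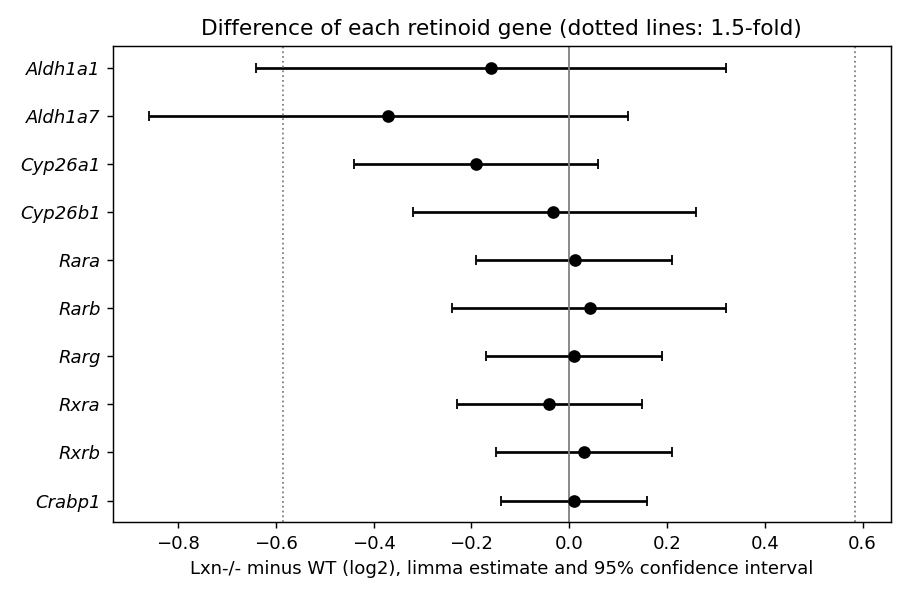
Lxn-/- minus WT difference (horizontal axis, log2) of the 10 retinoid genes from limma, with 95% confidence intervals. Every interval holds 0, and those of Aldh1a1 and Aldh1a7 are the 2 that reach past a 1.5-fold change (dotted lines).

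The retinoic acid receptors bind the ligand and activate or repress target genes, and Rarb varied most of the 3 over the pools (SD 0.16, against 0.1 for Rara and 0.077 for Rarg). Rarb, a receptor gene that retinoic acid is itself known to induce and whose promoter is shown above, had 8.27, 8.05 and 8.30 in Lxn-/- pools, against 7.92, 8.34 and 8.24 in WT pools. WT pools held the highest and the lowest value. The means were 8.21 ± 0.13 in Lxn-/- and 8.17 ± 0.22 in WT (SD, n = 3 each), a difference of 0.0418 (SE 0.12, 95% confidence interval -0.24 to 0.32), with an adjusted p of 0.993 in limma and an exact permutation p of 0.8. Rarb and Cyp26a1, the pair with the element, thus had differences of 0.0418 and -0.19, neither of which passed. Rarb was -0.079 without WT replicate 1 and 0.13 without WT replicate 2.

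Rara, the widely expressed receptor known for its fusion with PML in human promyelocytic leukemia, had 8.92, 8.75 and 8.74 in Lxn-/- pools, against 8.88, 8.83 and 8.65 in WT pools. The ranges overlapped, and the difference was 0.0129 (SE 0.087, 95% confidence interval -0.19 to 0.21), with an adjusted p of 0.998 in limma. Rarg, a receptor known in mice for its part in stem cell self-renewal, had 8.94, 8.73 and 8.87 in Lxn-/- pools, against 8.86, 8.77 and 8.88 in WT pools. Its WT values lay inside the Lxn-/- range, and the difference was 0.0108 (SE 0.077, 95% confidence interval -0.17 to 0.19), with an adjusted p of 0.999 in limma.

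The retinoid X receptors are the shared partners of many nuclear receptors. Rxra had 9.17, 8.96 and 9.05 in Lxn-/- pools, against 9.12, 9.18 and 9.01 in WT pools. The lowest value was an Lxn-/- pool and the highest a WT pool, and the difference was -0.0421 (SE 0.081, 95% confidence interval -0.23 to 0.15). Rxrb had 10.44, 10.28 and 10.43 in Lxn-/- pools, against 10.39, 10.41 and 10.26 in WT pools. In each genotype 1 pool was lower than the other 2, and the difference was 0.0309 (SE 0.077, 95% confidence interval -0.15 to 0.21). Both had an adjusted p of 0.993 in limma. For 8 of the 10 members the whole interval lay within a 1.5-fold change in either direction, as it did for 95.8% of all probe sets. The exceptions were Aldh1a1, down to 0.64-fold, and Aldh1a7, down to 0.55-fold.

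**Figure D4:**
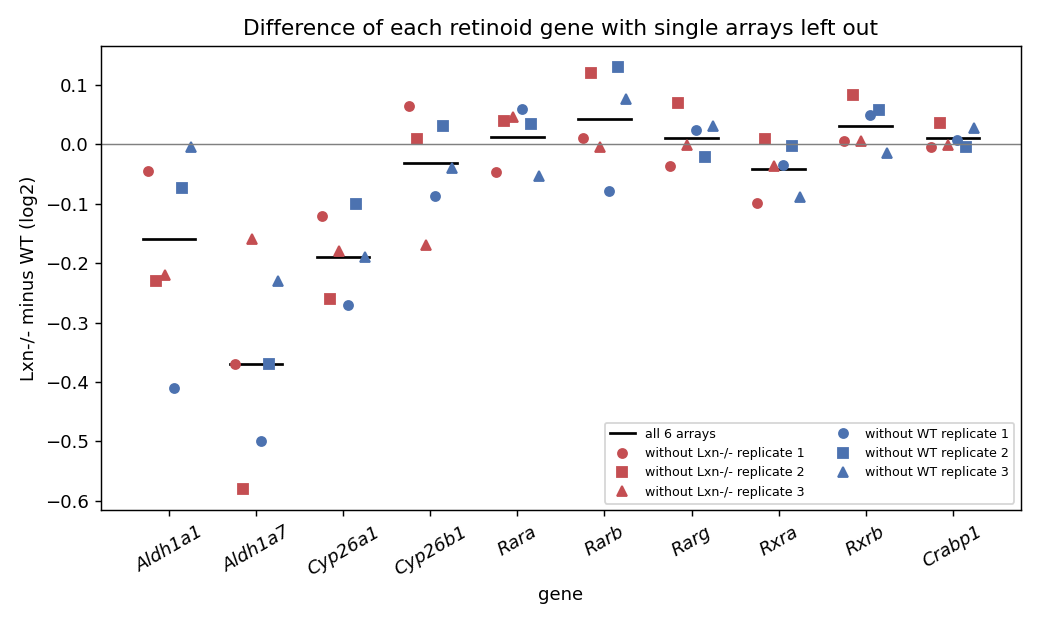
Lxn-/- minus WT difference (vertical axis, log2) of each retinoid gene with all 6 arrays (black bars) and with 1 array left out (red for an Lxn-/- array, blue for a WT array, shape for its replicate number). Aldh1a1, Aldh1a7 and Cyp26a1 stay below 0 throughout, Aldh1a1 as near as -0.0051, and the other 7 genes cross 0.

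No gene in the rest of the pathway passed either. Counts of higher and lower genes below stand beside 45.5% and 54.5% of all probe sets, or 27.2% and 72.8% with a common median. Of 26 measured genes of retinoid uptake, storage and retinal supply, 0 passed in limma, 13 were higher and 13 lower in Lxn-/-, and the median was 0.0063 (-0.039 with a common median). The list held 27 genes. The 2 of lowest unadjusted p were Ttr, which encodes a plasma carrier of the retinol-binding protein, at -0.23 (SE 0.094), and Adh5, an alcohol dehydrogenase gene, at -0.21 (SE 0.087). Ttr was under the floor, with a mean of 5.61 over the 6 arrays. Adh5 had 10.54, 10.42 and 10.48 in Lxn-/- pools, against 10.60, 10.60 and 10.85 in WT pools, with no overlap and an adjusted p of 0.993 in limma.

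Of 8 other genes of retinoic acid synthesis, clearance and binding, all measured, 0 passed, 4 were higher and 4 lower in Lxn-/- (1 and 7 with a common median), and 4 were above the floor. Fabp5, which encodes a fatty acid-binding protein that can also carry retinoic acid, had the lowest unadjusted p (0.0114, adjusted p = 0.993 in limma). It had 9.64, 9.54 and 9.56 in Lxn-/- pools, against 9.40, 9.39 and 9.24 in WT pools. The genotypes did not overlap, and the difference was 0.24 (SE 0.073, 95% confidence interval 0.07 to 0.41). Aldh8a1, another aldehyde dehydrogenase gene, was under the floor and differed by -0.14 (SE 0.081).

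Coactivators and corepressors of the receptors were the narrowest of the 5 lists, with 12 of 14 genes measured, 0 passing and differences from -0.03 to 0.07. Of the 12, 8 were higher and 4 lower in Lxn-/-, and 4 higher and 8 lower with a common median. Its members of lowest unadjusted p were Med1, a Mediator subunit gene, and Ncoa2, a coactivator gene, each at 0.06 (SE 0.069 and 0.067). Among other nuclear receptors that pair with RXR, 12 of 13 were measured, 0 passed, 8 were higher and 4 lower in Lxn-/-, and the median was 0.033 (-0.012 with a common median). Thrb, a thyroid hormone receptor gene, had 7.26, 7.37 and 7.34 in Lxn-/- pools, against 7.50, 7.53 and 7.64 in WT pools. Its genotypes did not overlap, and the difference was -0.24 (SE 0.07, adjusted p = 0.993 in limma). Nr1h3, which encodes the oxysterol receptor LXR alpha, differed by 0.22 (SE 0.087, adjusted p = 0.993 in limma).

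Genes that retinoic acid induces in other tissues or cell lines were read as an output of the pathway. Of 22 measured among 25 listed, including Rarb, Cyp26a1 and Cyp26b1, 0 passed. In Lxn-/- 6 were higher and 16 lower, beside 45.5% and 54.5% of all probe sets. With a common median 5 were higher and 17 lower, beside 27.2% and 72.8%. The median was -0.031 (-0.076 with a common median, where all probe sets had -0.055). Only 16 of the 22 were above the floor, so signals of the rest cannot be told from those of genes taken as silent. Stra6, Dhrs3 and Crabp2 were also counted in lists above. Beside Cyp26a1, the lowest unadjusted p was that of Gprc5c, an orphan receptor gene that marks dormant stem cells in mice. It had 7.66, 7.78 and 7.67 in Lxn-/- pools, against 7.78, 7.70 and 7.92 in WT pools, which overlapped, with a difference of -0.10 (SE 0.079, adjusted p = 0.993 in limma).

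**Figure D5:**
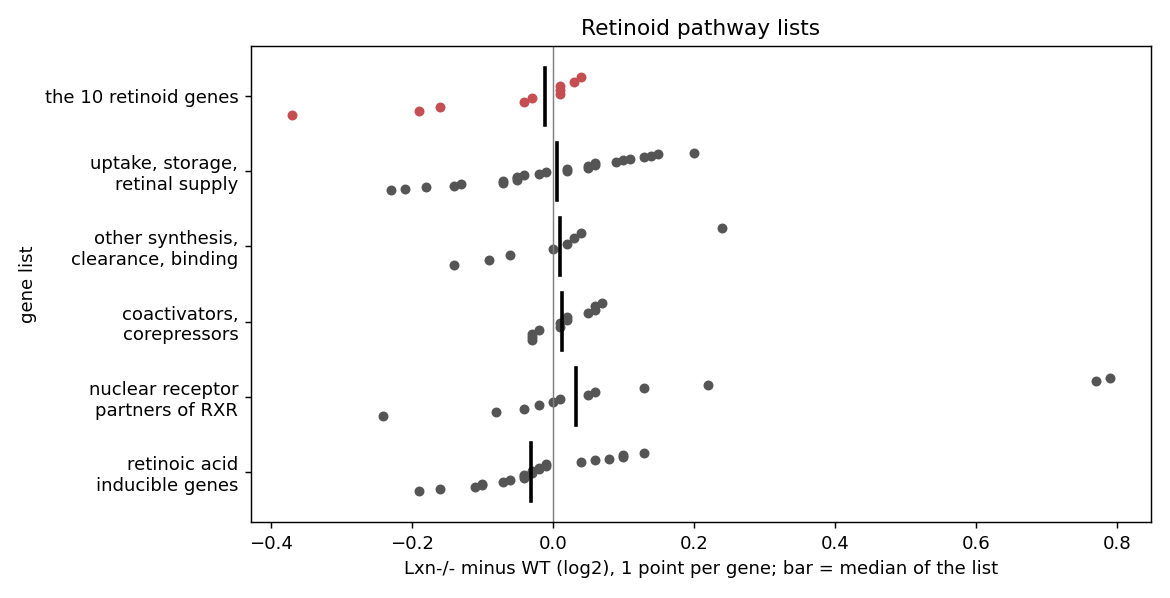
Lxn-/- minus WT difference (horizontal axis, log2) of each measured gene in the 10 retinoid genes (red) and in 5 lists of other pathway genes (grey), with a bar at each list's median. Medians lie between -0.031 and 0.033, and the widest points, at 0.77 and 0.79, are Nr4a2 and Nr4a1 among the RXR partners. Their SEs were 0.31 and 0.41, the genotypes overlapped for both, and each had an adjusted p of 0.993 in limma.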

How the data were processed

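RNA of 6 LT-HSC pools, 3 Lxn-/- and 3 WT, was hybridised to Affymetrix mouse Gene ST arrays from 100 ng of total RNA, per the labels' protocols. The deposited values are on a log2 scale after RMA by the authors, as the design text states. The submitters' processing notes list RMA and Partek 6.0, and the sources used here give no background step and no version of the probe sets. Of 35557 probe sets, GEO's platform annotation paired 21789 with 1 gene symbol and 1621 with several. A gene was represented by its brightest probe set over the 6 arrays. Array medians ran from 7.765 to 7.907. With 3 arrays a genotype, array number sets the precision.

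Lxn-/- and WT arrays were compared by limma 3.58.1 under R 4.3.3 (lmFit, eBayes, no covariates, two-sided) over 23410 probe sets with a symbol, taking 0.05 as the threshold on p adjusted by Benjamini-Hochberg. Differences are Lxn-/- minus WT. Errors are SDs over 3 arrays or limma's moderated SE. Exact permutation tests used scipy 1.17.1. The model was also run on simulated data with independent noise for each probe set. Such data lack the patterns that probe sets share over these arrays, so the run does not show how the test performs on them. The members and lists were chosen with earlier results of these data known. All 10 members are named, and from each other pathway list the 2 genes of lowest unadjusted p. Nr4a1 and Nr4a2 were named after their values were seen. Alternatives were other scalings, probe set filters, array weights, another variance prior, a replicate block and single arrays left out. Probe set coordinates are left out, since no build is named in the files.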

Additional observations from a re-analysis of the deposited data

How the results depend on the processing

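No setting called any probe set, or any of the 10 retinoid genes, at an adjusted p of 0.05 in limma. The lowest adjusted p over all probe sets ran from 0.134 (without WT replicate 2) to 1. An unadjusted p under 0.05 was reached by 914 of 23410 probe sets in the main setting. The lowest count was 527 of 16297 without dim probe sets, and the highest was 1807 of 23410 with array weights. At that unadjusted level in limma Cyp26a1, which was under the floor, passed with array weights (-0.29), with a replicate block (-0.19) and without WT replicate 1 (-0.27), with adjusted p-values of 0.628, 0.911 and 0.735. Of 23410 probe sets, 1173 passed it with the block and 1556 without WT replicate 1. Aldh1a1 also passed it without WT replicate 1 (-0.41). Aldh1a7 passed it without Lxn-/- replicate 2 (-0.58), where 1022 probe sets did. Their adjusted p-values in limma were 0.735 and 0.972. The deviations of same-numbered pools had correlations of 0.372, -0.0719 and -0.0807, and those of differently numbered pools ran from -0.336 to 0.362. With 3 pools a genotype these values cannot show whether the replicate numbers pair the pools. With the replicate block 0 probe sets were called. Leaving out single arrays, the count of genes called was 0 each time, the median over the members ran from -0.057 to 0.023, and single differences ran from -0.41 to -0.0051 (Aldh1a1), -0.58 to -0.16 (Aldh1a7), -0.27 to -0.10 (Cyp26a1), -0.17 to 0.065 (Cyp26b1), -0.054 to 0.059 (Rara), -0.079 to 0.13 (Rarb), -0.036 to 0.069 (Rarg), -0.098 to 0.0082 (Rxra), -0.015 to 0.083 (Rxrb) and -0.0043 to 0.036 (Crabp1). Quantile normalization turned Rara (-0.052), Rarb (-0.011), Rarg (-0.044) and Crabp1 (-0.034). A common median turned Rara (-0.032), Rarb (-0.0033), Rarg (-0.034), Rxrb (-0.014) and Crabp1 (-0.035), beside a median over all probe sets of -0.055. Array weights turned Rarb (-0.044). Subtracting the erythroid marker mean, added after seeing the data, turned Aldh1a1 (0.12). The cause of these turns was not tested. Aldh1a1, Aldh1a7 and Cyp26a1 kept their direction in the planned settings that held them. Cyp26a1 was not tested without dim probe sets, and each gene had 1 probe set, so averaging probe sets changed nothing.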
